A study of Mus musculus with 12 samples.

Results

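The genes described here were 10 members of the p53 pathway, chosen by name: Trp53, Mdm2, Ccng1, Bax, Bbc3, Phlda3, Zmat3, Btg2, Trp53inp1 and Sesn1. All 10 were among the 38739 gene symbols of the table, and all 10 were among the 11887 genes kept by a filter on low values. RNA was sequenced from bone marrow-derived macrophages (BMDMs), which are macrophages grown from marrow cells in culture, of C57BL/6J mice in 12 samples. The 4 groups of 3 samples were wild-type cells left untreated (WT UT), wild-type cells given lipopolysaccharide (WT LPS), untreated cells of cGAS knockout mice (cGAS-/- UT) and cGAS knockout cells given LPS (cGAS-/- LPS). LPS is a component of the outer membrane of Gram-negative bacteria, and cGAS is a cytosolic sensor of DNA. The labels give LPS at 100 ng/mL for 1 h, whereas the methods give a higher dose and a much longer stimulation, and the 2 sources also name different sequencers. The extraction text of the labels names neutrophils, although every sample is labelled as macrophages.

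The mice were male and of the same age. The deletion was in every cell of the mouse, and the cGAS-/- mice came from another laboratory while the WT mice were purchased, so genotype and colony cannot be told apart. A figure legend of the study describes the 3 samples per group as technical replicates, and p-values therefore measure the spread between these samples only. The macrophage markers summed to between 17020 and 34335 TPM (transcript abundance scaled by length and library). None of the 8 listed in the table was at 0 throughout a group. Lyz2 carried most of the sum. It averaged 16429 and 19561 TPM in WT UT and LPS cells, and 20266 and 33127 TPM in cGAS-/- UT and LPS cells. With LPS, 1 of the 8 was higher and 3 lower in WT cells (limma, adjusted p under 0.05). In cGAS-/- cells 3 were higher and 3 lower. Of all genes, 4.31% and 23.3% were called in WT cells and 4.76% and 9.06% in cGAS-/- cells. Without LPS, 1 was lower in cGAS-/- than in WT cells, against 1.58% of all genes. Cgas, the targeted gene, was at 2.67 to 2.89 TPM in WT UT cells and at 0.0703 to 0.291 TPM in the 6 cGAS-/- samples. It stood at 1.19, 2.88 and 3.25 TPM in WT LPS replicates 1, 2 and 3. The columns summed to between 447189 and 503156 TPM in 11 samples and to 709802 TPM in WT LPS replicate 3, where the ferritin pseudogene Fth-ps3 held 31.7% of the total, against 6.24% to 17.7% in the others. In that replicate protein-coding genes held 18.5% of the total and 6380 genes reached 1 TPM, against 39.7% to 54.4% and 7809 to 9204 genes in the others. Sample weights estimated from the spread were lowest for the WT LPS samples, at 0.346, 0.159 and 0.0352 against 1.38 to 2.57 in the other 9. Fold changes that rest on the WT LPS samples are therefore also given without that replicate.

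p53, the product of Trp53, is a transcription factor that is kept scarce by the ubiquitin ligase Mdm2 and accumulates after DNA damage and other stress. It then switches on genes that halt the cell cycle, repair DNA, start apoptosis or slow growth, and Mdm2 itself is among them, which closes a feedback loop. In macrophages p53 is known for restraining inflammatory gene expression and for opposing NF-kB. Since p53 is governed mostly through the stability of its protein, the RNA of its targets and the RNA of Trp53 can move separately.

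p53 binds a pair of adjacent half-sites, and this pair was searched for within 2000 bases on either side of the start of the canonical transcript of each gene in GRCm39, which need not be the outermost start of the gene, on both strands, with at most 2 letters off the p53 consensus half-sites and the C and G cores of both intact. The sites found near 3 of the 10 members are shown because they are the letters that p53 is known to read, with the cores in capitals and each written 5′ to 3′ on the strand of the gene.
Zmat3: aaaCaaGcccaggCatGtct
Ccng1 downstream of the start: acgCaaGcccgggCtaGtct
Ccng1 upstream of the start: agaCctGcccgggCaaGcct
Bax: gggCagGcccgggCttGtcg

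The Zmat3 site lay at chr3:32418480-32418499 on the minus strand, in an intron 1419 bases downstream of the start, and had 0 mismatches. The Ccng1 sites lay at chr11:40645763-40645782, in an intron 366 bases downstream of the start, and at chr11:40646289-40646308, outside the transcript and 160 bases upstream of the start, with 1 mismatch each on the minus strand. The Bax site lay at chr7:45115998-45116017 on the minus strand, in an intron 318 bases downstream of the start, and had 2 mismatches. Of 8023 tested protein-coding genes, 0.0997% had a pair with 0 mismatches in such a window, 0.76% had a pair with at most 1 mismatch and 4.4% had a pair with at most 2 mismatches. In the shorter promoters of RefSeq (GRCm38.p6), for which 8 members matched by symbol, Ccng1 was the only member with a pair, against 0.421% of 7362 genes with at most 2 mismatches. A match is a description of the letters and not a measured binding, and no match says only that these letters are not in the window. These are the sequences of the reference genome.

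In WT UT cells the members spanned a wide range of levels on the TPM scale, which is per transcript length. Sesn1 (chromosome 10, 41685931 to 41784423 in GRCm39), which encodes sestrin 1, a stress protein that restrains mTORC1, was the highest at 44.5 ± 2.64 TPM (SD, n = 3). Ccng1 (chromosome 11, 40639377 to 40646148), which encodes cyclin G1 and acts on Mdm2 in the feedback loop, was at 39.0 ± 1.59 TPM. Bax (chromosome 7, 45111015 to 45116325), whose protein opens the outer mitochondrial membrane in apoptosis, was at 34.0 ± 0.606 TPM. Btg2 (chromosome 1, 134002908 to 134015033), an antiproliferative factor that binds mRNA deadenylases, was at 28.4 ± 1.12 TPM and Mdm2 (chromosome 10, 117524780 to 117546730) at 19.2 ± 1.27 TPM. Trp53 (chromosome 11, 69469669 to 69482701) was at 10.6 ± 0.446 TPM.

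The remaining members were lower. Phlda3 (chromosome 1, 135693809 to 135697686), which encodes an inhibitor of Akt, was at 7.98 ± 1.43 TPM in WT UT cells. Bbc3 (chromosome 7, 16042318 to 16052130), which encodes the BH3-only killer protein PUMA, was at 5.27 ± 1.21 TPM. Trp53inp1 (chromosome 4, 11156412 to 11175230), which encodes a stress-induced nuclear protein with a part in autophagy, was at 4.35 ± 0.591 TPM. Zmat3 (chromosome 3, 32388941 to 32420163), which encodes an RNA-binding zinc finger protein, was the lowest at 2.11 ± 0.234 TPM. Only Bbc3 and Trp53inp1 overlapped among neighbours in this order. Because a value is a mean over the transcripts of a symbol, and the members have between 3 and 36 annotated transcripts, the order depends on the annotation and a value is not the total of the gene.

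**Figure D1:**
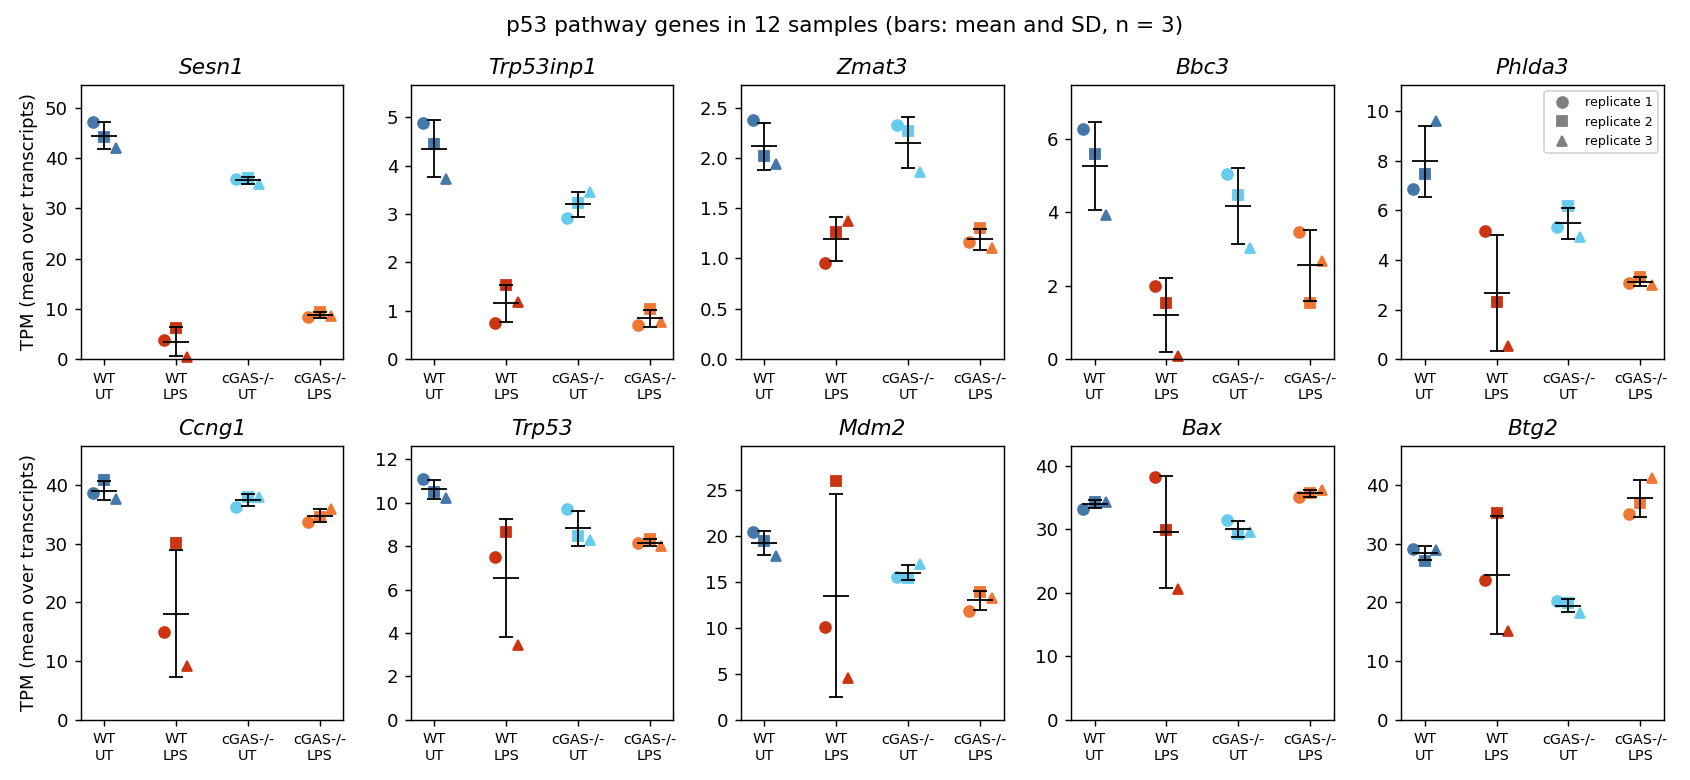
TPM (mean over the transcripts of a gene symbol, vertical axis starting at 0) of the 10 p53 pathway genes in the 12 samples, grouped by genotype and treatment. Points are samples, with the shape giving the replicate, and bars are the mean and SD of 3 samples. Sesn1 and Trp53inp1 are lower in all LPS samples than in all UT samples of both genotypes, and the WT LPS points spread widely for Ccng1, Mdm2, Bax and Btg2.

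The first question was how these genes differed between LPS-treated and untreated WT cells. Sesn1 and Trp53inp1 fell with LPS, as did Bbc3, Phlda3, Ccng1 and Zmat3, while Trp53, Mdm2, Bax and Btg2 did not pass the test. Of the 10 members, 6 were lower and 0 higher at an adjusted p under 0.05 (limma on log2(TPM + 1), adjusted over all genes tested), against 23.3% of all genes called lower and 4.31% called higher. All 10 members had a log2 fold change below 0, as did 74.9% of all genes. The median log2 fold change of the members was -1.0 and that of all genes tested -0.46, and these were -0.71 and -0.29 without WT LPS replicate 3. Sesn1 was the 1 member that also passed a log2 fold change of 2, as did 4.32% of all genes in either direction. In 7 of the 10 members every WT LPS sample lay below every WT UT sample, as in 32.9% of all genes. In these bulk samples fewer cells of a type and less RNA per cell cannot be told apart.

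Sesn1 was at 47.3, 44.2 and 42.0 TPM in WT UT replicates 1, 2 and 3 and at 3.76, 6.23 and 0.385 TPM in WT LPS replicates 1, 2 and 3. The groups did not overlap, and replicate 3 was the lowest of the LPS samples by a wide margin. Its log2 fold change was -3.65 (standard error 0.47, adjusted p = 2.88e-04), the largest among the members, and -2.95 without WT LPS replicate 3 (adjusted p = 9.11e-07). Trp53inp1 was at 4.88, 4.45 and 3.71 TPM in WT UT cells and at 0.748, 1.52 and 1.18 TPM in WT LPS cells. Here replicate 3 lay between the other 2 samples. Trp53inp1 had a log2 fold change of -1.32 (standard error 0.19, adjusted p = 5.52e-04) and -1.34 without replicate 3. Sesn1 and Trp53inp1 were called lower in all 23 alternative analyses of this comparison.

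Of the genes with roles in apoptosis and Akt signalling, Bbc3 was at 6.29, 5.60 and 3.94 TPM in WT UT cells and at 1.99, 1.54 and 0.0703 TPM in WT LPS cells. Its samples did not overlap, and its log2 fold change was -1.62 (adjusted p = 0.00972; -1.17 without WT LPS replicate 3), a call lost in 2 of 23 alternatives. Phlda3 was at 6.88, 7.47 and 9.60 TPM in WT UT cells and at 5.16, 2.30 and 0.542 TPM in WT LPS cells. The groups did not overlap, and the LPS samples were far apart, with replicate 3 the lowest. The log2 fold change of Phlda3 was -1.50 (adjusted p = 0.0174), -0.98 without replicate 3 (adjusted p = 0.011) and -1.04 with TMM scaling factors, where it was not called (adjusted p = 0.0757), and the call was lost in 5 of 23 alternatives. Bax was at 33.3, 34.3 and 34.3 TPM in WT UT cells and at 38.2, 29.9 and 20.6 TPM in WT LPS cells. Its WT LPS samples lay on either side of the UT samples, the log2 fold change was -0.24 (adjusted p = 0.471), and it was -0.01 without replicate 3 and 0.44 with TMM factors (adjusted p = 0.141).

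Ccng1 was at 38.7, 40.8 and 37.6 TPM in WT UT cells and at 14.9, 30.1 and 9.24 TPM in WT LPS cells. All WT LPS samples were below all UT samples, with replicate 2 the nearest to them. For Ccng1 the log2 fold change was -1.22 (adjusted p = 0.0222) and -0.85 without replicate 3 (adjusted p = 0.0151), and the call was lost in 4 of 23 alternatives, among them the 6 WT samples alone. Zmat3 was at 2.38, 2.02 and 1.94 TPM in WT UT cells and at 0.951, 1.26 and 1.37 TPM in WT LPS cells, and it was the only called member whose highest LPS sample was replicate 3. Its log2 fold change of -0.51 (adjusted p = 0.0361) was close to the median of all genes, was -0.56 without replicate 3 (adjusted p = 0.00986), was -0.06 with TMM factors (adjusted p = 0.881) and was 0.04 after quantile normalization (adjusted p = 0.916). Zmat3 kept its call in 5 of 22 alternatives.

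Trp53 was at 11.1, 10.5 and 10.2 TPM in WT UT cells and at 7.50, 8.66 and 3.45 TPM in WT LPS cells. The groups did not overlap, but the log2 fold change of -0.70 was not called (adjusted p = 0.0760). Without replicate 3 it was smaller, at -0.36, and was called (adjusted p = 0.0335), as it was without replicate 2, and it was -0.09 with TMM factors (adjusted p = 0.685). Mdm2 was at 20.4, 19.5 and 17.9 TPM in WT UT cells and at 10.1, 25.9 and 4.58 TPM in WT LPS cells, so that 1 WT LPS sample was above and 2 were below all UT samples. Its log2 fold change was -0.77 (adjusted p = 0.20), -0.23 without replicate 3 and -1.36 without replicate 2 (adjusted p = 0.00239). Btg2 was at 29.1, 27.1 and 29.0 TPM in WT UT cells and at 23.7, 35.2 and 15.1 TPM in WT LPS cells, with a log2 fold change of -0.27 (adjusted p = 0.473) that was 0.02 without replicate 3 and 0.40 with TMM factors (adjusted p = 0.0684).

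Scaling mattered for this comparison as a whole. The all-gene median in WT cells went from -0.46 to -0.09 with TMM factors, and relative to these medians Sesn1 was at -3.19 and -3.11, Trp53inp1 at -0.86 and -0.77, and Zmat3 at -0.05 and 0.03. Of all genes called, 15.6% were higher with LPS without scaling and 38.7% with TMM factors. With TMM factors 4 members were called lower (Sesn1, Trp53inp1, Bbc3 and Ccng1), against 12.3% of all genes called lower. Without WT LPS replicate 1, 2 or 3, the number of members called was 5, 9 or 7, and all genes were called at 28.1%, 48.7% and 34.7%. Leaving out WT UT replicate 3 left 3 members called, and 17.4% of all genes.

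The lists of proliferation genes and of markers of other cell types were set beside the LPS comparisons. Of the 25 proliferation genes, 24 were lower with LPS in WT cells and 16 in cGAS-/- cells, against 23.3% and 9.06% of all genes. The B cell markers summed to 30.6 to 45.2 TPM in WT LPS cells and 3.09 to 8.91 TPM in cGAS-/- LPS cells, below the UT samples of the same genotype given later. Igkc was the highest of them on average in both groups. Of 4 tested B cell markers 1 was called higher and 2 lower with LPS in WT cells, and 0 and 1 in cGAS-/- cells. Cd79a was at 0.132 to 1.55 TPM in WT UT and 1.54 to 2.49 TPM in WT LPS cells. The neutrophil markers summed to 117 to 508 TPM in WT LPS cells and 419 to 467 TPM in cGAS-/- LPS cells. Lcn2, which macrophages also induce with LPS, was the highest of them on average in both groups. In WT cells the neutrophil, stromal and erythroid sums overlapped between LPS and UT samples, but single markers moved both ways. Of 8 tested neutrophil markers 2 were called higher and 3 lower, and of 5 stromal markers 1 and 2. Of all genes 4.31% were called higher. In cGAS-/- cells 2 neutrophil markers were higher and 0 lower, against 4.76% of all genes higher, and no stromal marker was called. The cGAS-/- LPS neutrophil sums were above the cGAS-/- UT sums given later. No erythroid marker was called with LPS in either genotype. In WT LPS and cGAS-/- LPS cells in turn, the stromal markers stood at 5.70 to 18.1 TPM and 3.07 to 4.18 TPM. The erythroid markers were at 1.56 to 37.4 TPM and 2.72 to 14.7 TPM. The T and NK cell markers were at 0.146 to 0.704 TPM and 0.517 to 0.867 TPM with Cd3e, Ncr1 and Nkg7 at 0. The part of these cells in the values of the p53 pathway genes was not tested.

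The same question in cGAS-/- cells gave a shorter list in this fit, though not in every alternative. Sesn1 and Trp53inp1 fell with LPS, and no member rose by the test, although Btg2 was close to its threshold. Of the 10 members, 2 were lower and 0 higher, against 9.06% of all genes called lower and 4.76% called higher (limma, adjusted p under 0.05). The member median was -0.40, and that of all genes was -0.20. With the 6 samples of each genotype analysed alone, 2 members were called in WT and 7 in cGAS-/- cells (6.02% and 44.6% of all genes). With sample weights the numbers were 3 and 7 (19.4% and 48.3% of all genes). The cGAS-/- LPS samples lay close together, with summed levels of the 10 members of 141 to 151 TPM, against 159 to 165 TPM in cGAS-/- UT cells. In 6 members every LPS sample was below every UT sample, against 40.2% of all genes, and in 2 members every LPS sample was above, against 15.5%.

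Sesn1 was at 35.9, 36.0 and 34.8 TPM in cGAS-/- UT cells and at 8.36, 9.45 and 8.62 TPM in cGAS-/- LPS cells. The groups were far apart, and the mean fell to 24.8% of its UT level. The log2 fold change was -1.90 (standard error 0.47, adjusted p = 0.0197). The call was lost when any of the 6 cGAS-/- samples was left out and with a pseudocount of 0.1 (adjusted p = 0.111), and with those 6 samples analysed alone the adjusted p was 4.57e-06. Trp53inp1 was at 2.92, 3.23 and 3.44 TPM in cGAS-/- UT cells and at 0.707, 1.04 and 0.768 TPM in cGAS-/- LPS cells. It fell to 26.2% of its UT level, with a log2 fold change of -1.19 (standard error 0.19, adjusted p = 0.00133), and was called in all 23 alternative analyses. In WT cells its mean fell to 26.4%.

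Btg2 was at 20.2, 19.9 and 18.2 TPM in cGAS-/- UT cells and at 35.1, 36.8 and 41.1 TPM in cGAS-/- LPS cells. Every LPS sample was above every UT sample, and the ratio of the means was 1.94. The log2 fold change of 0.92 missed the threshold (adjusted p = 0.0514), was called in 10 of 23 alternative analyses and was 1.20 with TMM factors (adjusted p = 1.62e-04). Zmat3 was at 2.33, 2.26 and 1.86 TPM in cGAS-/- UT cells and at 1.16, 1.31 and 1.11 TPM in cGAS-/- LPS cells, with no overlap and a log2 fold change of -0.52 (adjusted p = 0.0520) that was called in 7 of 22 alternatives. Zmat3 thus had nearly the same values in both genotypes.

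Phlda3 was at 5.35, 6.18 and 4.94 TPM in cGAS-/- UT cells and at 3.08, 3.31 and 2.98 TPM in cGAS-/- LPS cells. These groups did not overlap either, but the log2 fold change of -0.65 was not called (adjusted p = 0.357). Bbc3 was at 5.04, 4.48 and 3.02 TPM in cGAS-/- UT cells and at 3.46, 1.54 and 2.68 TPM in cGAS-/- LPS cells, and the groups overlapped. Bax was at 31.5, 29.2 and 29.6 TPM in cGAS-/- UT cells and at 35.1, 35.7 and 36.2 TPM in cGAS-/- LPS cells. All Bax values with LPS were above those without, and the log2 fold change was 0.24 (adjusted p = 0.624).

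The genes of the feedback loop were not called in cGAS-/- cells. Trp53 was at 9.72, 8.46 and 8.27 TPM in UT and at 8.15, 8.33 and 8.01 TPM in LPS samples, with a log2 fold change of -0.10 and a 95% interval of -0.70 to 0.50. Mdm2 was at 15.6, 15.5 and 16.9 TPM in UT and at 11.9, 13.9 and 13.3 TPM in LPS samples, with a log2 fold change of -0.28 and an interval of -1.24 to 0.68. Ccng1 was at 36.2, 38.0 and 38.0 TPM in UT and at 33.7, 34.6 and 35.9 TPM in LPS samples, with a log2 fold change of -0.10 and an interval of -0.85 to 0.64. The LPS samples of Mdm2 and Ccng1 were all below the UT samples, while those of Trp53 overlapped.

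These intervals take in the spread of the WT LPS samples, which share the estimate. When the 6 cGAS-/- samples were analysed alone, 7 members were called (Sesn1, Trp53inp1, Phlda3, Zmat3 and Mdm2 lower, Btg2 and Bax higher), against 44.6% of all genes called in either direction. In the order of mean levels, Sesn1 stood second in cGAS-/- UT cells, at 35.6 TPM after Ccng1 at 37.4 TPM, but at 8.81 TPM in cGAS-/- LPS cells it stood below Btg2, Bax, Ccng1 and Mdm2.

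**Figure D2:**
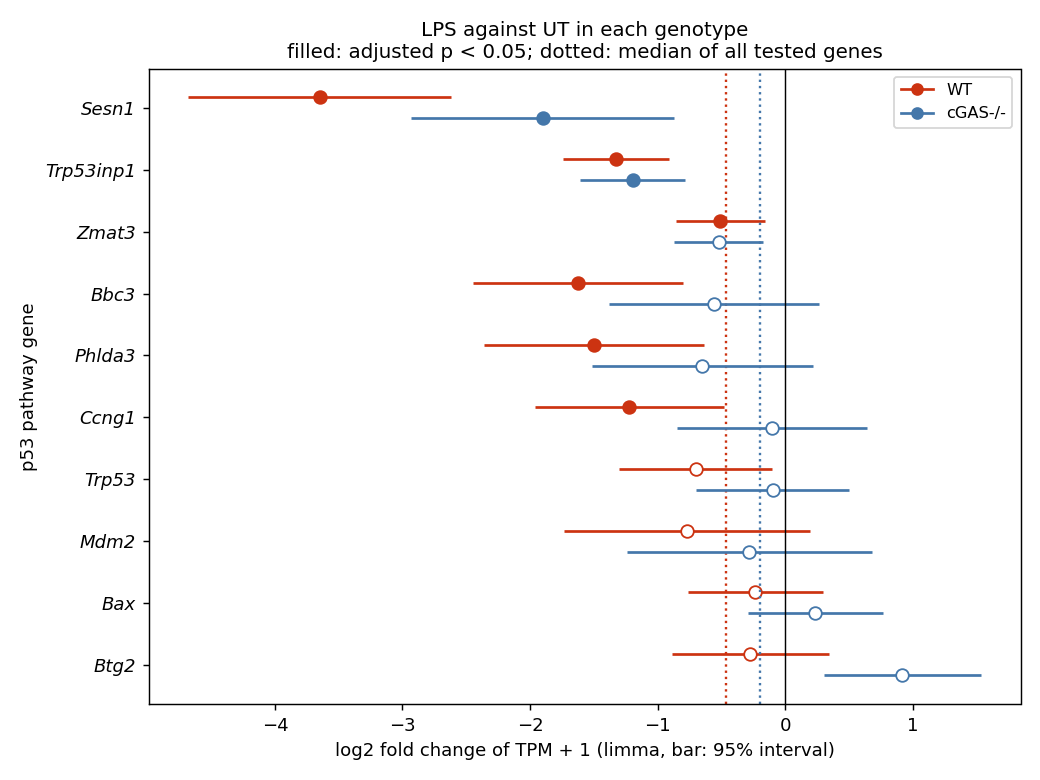
Log2 fold change of TPM + 1 between LPS and UT samples (horizontal axis) for each p53 pathway gene in WT (red) and cGAS-/- cells (blue). Bars are 95% intervals from limma, filled points have an adjusted p under 0.05, and dotted lines are the medians of all tested genes (-0.46 and -0.20). Sesn1 lies farthest to the left in both genotypes, and Btg2 and Bax lie to the right of 0 in cGAS-/- cells and to the left in WT cells, though with TMM factors both were above 0 in both genotypes.

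The next comparison asked whether untreated cells of both genotypes differed. No member was called between cGAS-/- UT and WT UT cells, against 1.83% of all genes (limma, adjusted p under 0.05), and 0 members had an unadjusted p under 0.05, against 8.08% of all genes. The values of 9 of 10 members were nonetheless lower in cGAS-/- cells on average, as for 55.6% of all genes, with a median log2 fold change of -0.26 against -0.04 for all genes. In 7 members every cGAS-/- UT sample was below every WT UT sample, as in 18.4% of all genes. The summed level of the 10 members was 159 to 165 TPM in cGAS-/- UT cells and 190 to 200 TPM in WT UT cells.

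Btg2 had the largest of these differences, with 18.2 to 20.2 TPM in cGAS-/- UT cells and 27.1 to 29.1 TPM in WT UT cells, a log2 fold change of -0.53 (adjusted p = 0.808). Phlda3 was next, at 4.94 to 6.18 TPM and 6.88 to 9.60 TPM, a log2 fold change of -0.46, and then Trp53inp1, at 2.92 to 3.44 TPM and 3.71 to 4.88 TPM, a log2 fold change of -0.35. The groups of both genes did not overlap, and neither gene was called. Sesn1 was at 34.8 to 36.0 TPM and 42.0 to 47.3 TPM, a log2 fold change of -0.31, and Trp53 at 8.27 to 9.72 TPM and 10.2 to 11.1 TPM, a log2 fold change of -0.24 with a 95% interval of -0.84 to 0.35. Mdm2 was at 15.5 to 16.9 TPM in cGAS-/- UT cells and 17.9 to 20.4 TPM in WT UT cells, a log2 fold change of -0.25. Bax was at 29.2 to 31.5 TPM and 33.3 to 34.3 TPM, a log2 fold change of -0.17. Zmat3, Ccng1 and Bbc3 overlapped between the genotypes, with log2 fold changes of 0.02, -0.06 and -0.28. When the 6 UT samples were analysed alone, Btg2 (adjusted p = 0.00601) and Sesn1 (adjusted p = 0.0222) were called lower, as were 7.07% of all genes.

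Other features moved with genotype in these samples. Of 25 tested genes of proliferation, 16 were lower in cGAS-/- UT cells, against 1.58% of all genes, among them Top2a, a topoisomerase of dividing cells, at 1.40 to 1.85 TPM against 9.15 to 10.6 TPM in WT UT cells. Mki67, the antigen Ki-67, was at 1.88 to 2.51 TPM against 12.3 to 13.3 TPM, and Ccna2, the S-phase cyclin A2, was at 0.528 to 0.912 TPM against 5.31 to 5.85 TPM. The 7 listed B cell markers summed to 20.1 to 28.6 TPM in cGAS-/- UT cells and 109 to 135 TPM in WT UT cells, the 10 neutrophil markers to 72.6 to 151 TPM and 158 to 234 TPM, and the 5 stromal markers to 2.85 to 4.72 TPM and 9.28 to 13.2 TPM. Elane was at 0 in all 3 cGAS-/- UT samples. The 6 erythroid markers overlapped, at 5.00 to 17.9 TPM and 4.76 to 8.64 TPM, and the 9 T and NK cell markers summed to at most 1.25 TPM in any sample. The part of these cells in the lower p53 pathway values was not tested.

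With LPS in both genotypes, 0 members were called between cGAS-/- and WT cells, against 2.36% of all genes (limma, adjusted p under 0.05), and 3 members had an unadjusted p under 0.05, against 18.8% of all genes. These were Sesn1, Ccng1 and Btg2, all with higher means in cGAS-/- LPS cells. The median over the members was 0.37 and that of all genes 0.20, and these were 0.07 and 0.04 without WT LPS replicate 3. Sesn1 was at 8.36 to 9.45 TPM in cGAS-/- LPS cells and at 0.385 to 6.23 TPM in WT LPS cells, a log2 fold change of 1.43 (adjusted p = 0.152) and, without WT LPS replicate 3, of 0.74 (adjusted p = 0.0207). Ccng1 was at 33.7 to 35.9 TPM and 9.24 to 30.1 TPM, a log2 fold change of 1.06 (adjusted p = 0.145) that was called with TMM factors at 0.71 (adjusted p = 0.0448) and not called without WT LPS replicate 3 at 0.68 (adjusted p = 0.0965). Sesn1 and Ccng1 were the 2 members in which no sample overlapped, both higher in cGAS-/- LPS cells, as were 12.6% of all genes.

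The other members overlapped between the genotypes under LPS. Bbc3 was at 1.54 to 3.46 TPM in cGAS-/- LPS cells and 0.0703 to 1.99 TPM in WT LPS cells, a log2 fold change of 0.79 (adjusted p = 0.283) that was 0.33 without WT LPS replicate 3. Phlda3 and Bax had log2 fold changes of 0.39 and 0.30, which were -0.13 and 0.08 without replicate 3, and the WT LPS samples of both lay on either side of the cGAS-/- LPS samples. Btg2 was at 35.1 to 41.1 TPM in cGAS-/- LPS cells and 15.1 to 35.2 TPM in WT LPS cells, a log2 fold change of 0.67 (adjusted p = 0.237) that was 0.37 without WT LPS replicate 3 (adjusted p = 0.191). Mdm2 was at 11.9 to 13.9 TPM and 4.58 to 25.9 TPM, so that the WT samples lay on either side, and its log2 fold change of 0.24 was -0.30 without replicate 3. Trp53 was at 8.01 to 8.33 TPM and 3.45 to 8.66 TPM, with a log2 fold change of 0.36 that was 0.02 without replicate 3. Trp53inp1 was at 0.707 to 1.04 TPM and 0.748 to 1.52 TPM, and Zmat3 at 1.11 to 1.31 TPM and 0.951 to 1.37 TPM, with log2 fold changes of -0.21 and 0.00, and of -0.20 and 0.06 without replicate 3. The number of members called was 0, 4 or 1 without WT LPS replicate 1, 2 or 3, and the share of all genes called was 2.97%, 27.9% or 8.28%.

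**Figure D3:**
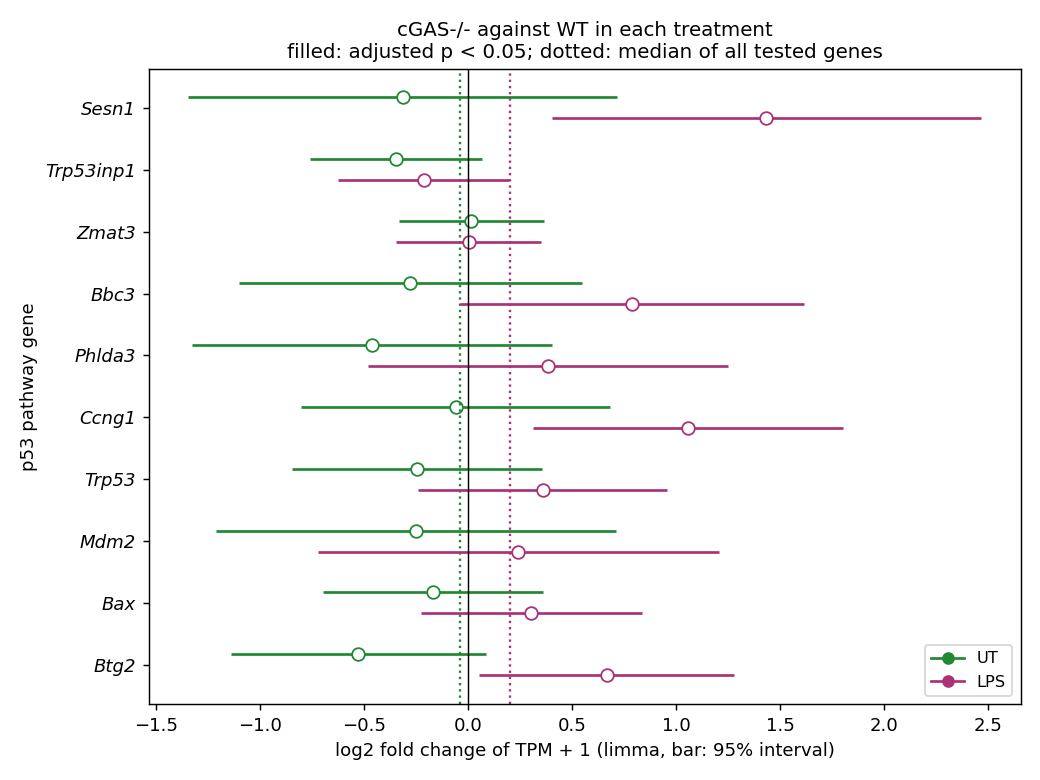
Log2 fold change of TPM + 1 between cGAS-/- and WT samples (horizontal axis) for each p53 pathway gene in UT (green) and LPS samples (purple). Bars are 95% intervals from limma, no point is filled because no adjusted p was under 0.05, and dotted lines are the medians of all tested genes (-0.04 and 0.20). In UT samples 9 of 10 points lie below 0, and in LPS samples Sesn1, Ccng1 and Btg2 have intervals above 0.

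Whether LPS acted differently in the genotypes was then tested directly, as the interaction term of the same fit. No member was called, against 0.9% of all genes, and 3 members had an unadjusted p under 0.05, against 11.1% of all genes. Sesn1 had the largest difference, 1.75 on the log2 scale (standard error 0.66, adjusted p = 0.348), which was 1.05 without WT LPS replicate 3 (adjusted p = 0.0254) and 1.58 with TMM factors (adjusted p = 0.282). Btg2 had a difference of 1.19 (adjusted p = 0.270), which was 0.90 without replicate 3 (adjusted p = 0.0419) and 0.80 with TMM factors (adjusted p = 0.101). Ccng1 had a difference of 1.12 (adjusted p = 0.424), which was 0.74 without replicate 3 (adjusted p = 0.236) and 1.54 without replicate 2 (adjusted p = 0.0112). Bbc3 had a difference of 1.06 (adjusted p = 0.498), which was 0.61 without replicate 3.

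For 2 members the LPS effects were close to equal. The difference was -0.01 for Zmat3, with a 95% interval of -0.51 to 0.48, and 0.13 for Trp53inp1, with an interval of -0.45 to 0.71. They were 0.04 and 0.15 without replicate 3. The median difference of the 10 members was 0.73 and that of all genes 0.27, and these were 0.30 and 0.08 without replicate 3. Without WT LPS replicate 1, 2 or 3, the number of members called was 0, 3 or 2, and the share of all genes called was 0.993%, 12.6% or 4.56%.

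Other genes of the pathway were taken from 2 lists. Of the regulators of p53, 23 of 24 listed genes were in the table and 21 were tested. With LPS in WT cells, 1 was higher and 6 were lower, with a median of -0.65 against -0.46 for all genes, and of -0.35 against -0.29 without WT LPS replicate 3. Of all genes 4.31% were called higher and 23.3% lower. With TMM factors 2 regulators were higher and 3 lower, against 7.75% and 12.3% of all genes, and with the 6 WT samples alone 1 was higher and 1 lower, against 1.40% and 4.62%. Without WT LPS replicate 2, 12 were lower, and 43.1% of all genes. In cGAS-/- cells 1 was higher and 1 lower, against 4.76% and 9.06% of all genes, with a median of -0.35 against -0.20. Pml, the scaffold of nuclear bodies that hold p53, was the gene that rose in both. It was at 1.72 to 2.49 TPM in WT UT cells and 8.26, 8.54 and 19.2 TPM in WT LPS cells, with replicate 3 the highest, and its log2 fold change was 2.01 (adjusted p = 5.46e-04) and 1.64 without that replicate (adjusted p = 2.47e-05). In cGAS-/- cells Pml was at 1.04 to 1.42 TPM without LPS and 3.76 to 4.54 TPM with LPS, a log2 fold change of 1.16 (adjusted p = 0.0185) that was not called with TMM factors (adjusted p = 0.0845). Between the genotypes under LPS it was lower in cGAS-/- cells by the test, at -1.25 (adjusted p = 0.0472) and at -0.88 without WT LPS replicate 3 (adjusted p = 0.00530), and with TMM factors the adjusted p was 0.0783, one of 16 alternatives of 23 in which the call was lost.

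The regulators that fell in WT cells were Ppm1d, Chek1, Hipk2, Chek2, Rchy1 and Usp10. Ppm1d, the phosphatase Wip1 that switches p53 off, was at 3.83 to 5.23 TPM in WT UT cells and at 0.860, 2.92 and 0.172 TPM in WT LPS cells, a log2 fold change of -1.43 (adjusted p = 0.0154) and, without replicate 3, of -1.02 (adjusted p = 0.0220). Chek2, a kinase that activates p53, was the regulator that was lower in cGAS-/- cells too, at -0.78 (adjusted p = 0.00831).

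Of the other targets of p53, 56 of 66 listed genes were in the table and 45 were tested. Cdkn1a and several other listed targets on later chromosomes were not analysed here. With LPS in WT cells, 1 target was higher and 15 were lower, against 4.31% and 23.3% of all genes. The median was -0.56 against -0.46 for all genes, and -0.36 against -0.29 without WT LPS replicate 3. With TMM factors 4 were higher and 7 lower, against 7.75% and 12.3% of all genes. Leaving out WT LPS replicate 2 gave 2 higher and 26 lower targets, with 5.58% of all genes called higher and 43.1% lower. In cGAS-/- cells 3 were higher and 6 lower, against 4.76% and 9.06% of all genes, with a median of -0.27 against -0.20.

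Thbs1, which encodes the matrix protein thrombospondin 1, rose in both genotypes. It was at 12.6 to 16.2 TPM in WT UT cells and at 58.2 to 273 TPM in WT LPS cells, a log2 fold change of 2.87 (adjusted p = 9.29e-04) and, without WT LPS replicate 3, of 3.36. In cGAS-/- cells it was at 19.9 to 21.5 TPM and 188 to 206 TPM, a log2 fold change of 3.19 (adjusted p = 5.61e-04). Steap3, an iron reductase, fell in both, by 2.35 on the log2 scale in WT cells (adjusted p = 3.11e-04), where it was -1.96 without replicate 3, and by 2.27 in cGAS-/- cells (adjusted p = 4.46e-04). Foxo3, a transcription factor that shares targets with p53, fell in both as well, at -1.42 in WT cells (adjusted p = 0.00127), where it was -1.20 without replicate 3, and at -1.11 in cGAS-/- cells (adjusted p = 0.00719). Gadd45a, a stress and DNA damage protein, was at 13.2 to 15.0 TPM in WT UT cells and at 0.246 to 4.08 TPM in WT LPS cells, a log2 fold change of -2.31 (adjusted p = 0.00290) and, without replicate 3, of -1.66. In cGAS-/- cells Gadd45a was at 6.33 to 6.75 TPM without LPS and 4.30 to 4.90 TPM with LPS. That fall was not called, and it was called in 3 of 23 alternatives.

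In cGAS-/- cells Dram1, a lysosomal membrane protein of autophagy, rose, with samples between 8.64 and 9.67 TPM without LPS and between 31.3 and 33.6 TPM with LPS, a log2 fold change of 1.74 (adjusted p = 0.00239). In WT cells its samples lay between 7.66 and 8.12 TPM without LPS and at 11.2, 20.2 and 7.30 TPM with LPS, and it was not called at 0.54 (adjusted p = 0.184), but was called with TMM factors at 1.18 (adjusted p = 2.79e-04) and without replicate 3 at 0.86 (adjusted p = 0.00744). Dram1 was higher in cGAS-/- than in WT cells under LPS, at 1.37 (adjusted p = 0.0400) and at 1.05 without replicate 3, a call lost in 15 of 23 alternatives. The kinase Plk3 was called higher in cGAS-/- cells at 1.00 (adjusted p = 0.0399), and the call was lost in 13 of 23 alternatives. Pltp, a phospholipid transfer protein, was called lower at -1.37 in cGAS-/- cells (adjusted p = 0.0103) and at -1.25 in WT cells (adjusted p = 0.0116). Ctsd, the lysosomal protease cathepsin D, was called lower at -1.22 in cGAS-/- cells (adjusted p = 0.0236), a call lost in 9 of 23 alternatives, and at -1.25 in WT cells (adjusted p = 0.0140). Cyfip2, an actin regulator, was called lower at -1.12 in cGAS-/- cells (adjusted p = 0.00159) and at -0.83 in WT cells (adjusted p = 0.00730). In WT cells without replicate 3 these were -0.88, -0.78 and -0.77 for Pltp, Ctsd and Cyfip2.

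Ephx1, an epoxide hydrolase, was the target with a difference in all comparisons but one. It was at 12.3, 10.6 and 13.3 TPM in WT UT cells, 3.64, 3.71 and 3.40 TPM in cGAS-/- UT cells, 0.534, 0.544 and 0.271 TPM in WT LPS cells and 0.646, 0.480 and 0.484 TPM in cGAS-/- LPS cells. The LPS samples of both genotypes overlapped near the bottom of the range. The log2 fold change with LPS was -3.17 in WT cells (adjusted p = 1.34e-06; -3.08 without replicate 3) and -1.58 in cGAS-/- cells (adjusted p = 9.07e-05), and between the genotypes in UT cells it was -1.51 (adjusted p = 7.66e-04). Outside the alternative analyses, Ephx1 was the only one of the 21 regulators and 45 targets called between the genotypes in UT cells. Of all genes 1.83% were called. Among the alternatives, Pltp was called lower in 4 of 23 and Gadd45a in 3 of 23. With sample weights 1 regulator was higher and 1 lower, against 3.49% and 8.03% of all genes.

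**Figure D4:**
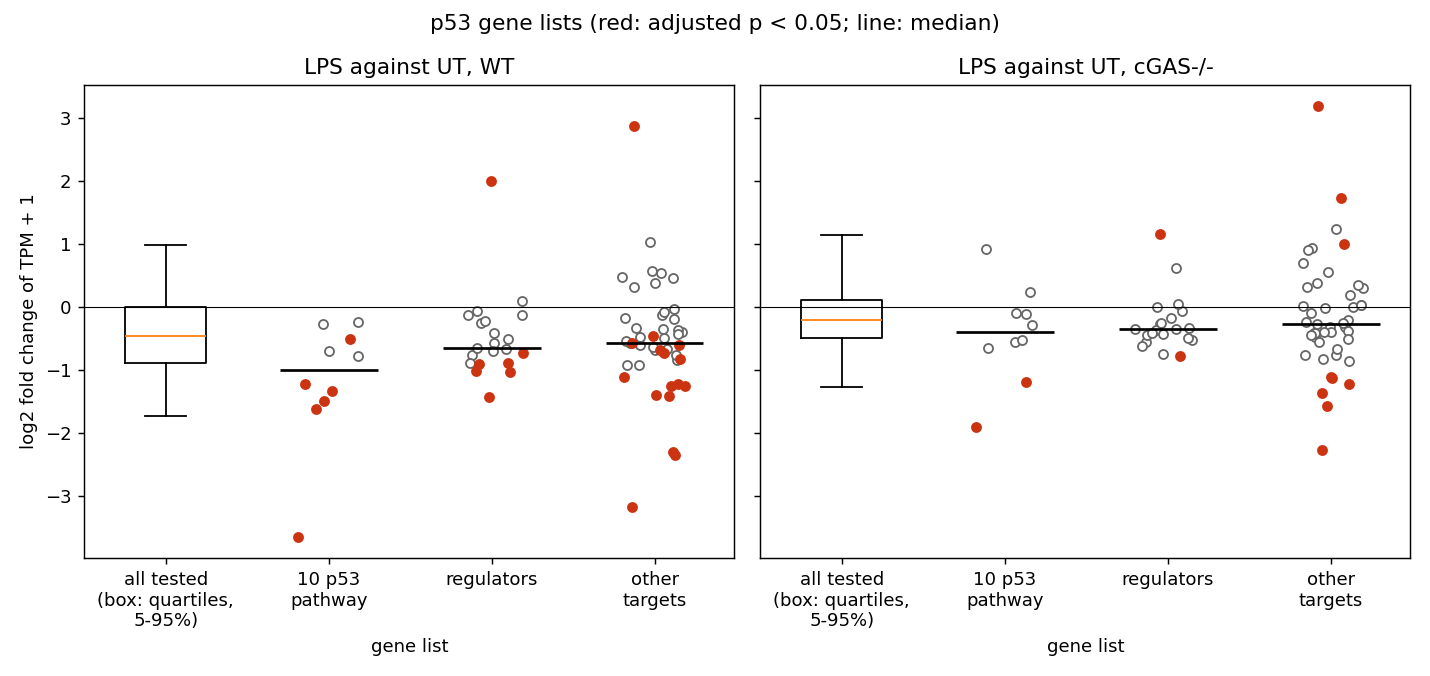
Log2 fold change of TPM + 1 with LPS (vertical axis) in WT (left) and cGAS-/- cells (right) for all tested genes (box of quartiles with whiskers at the 5th and 95th percentiles), the 10 p53 pathway genes, the regulators and the other targets. Points are genes, red where the adjusted p was under 0.05, and lines are list medians. In WT cells the medians of the 3 lists (-1.0, -0.65 and -0.56) lie below that of all genes (-0.46; without WT LPS replicate 3 they are -0.71, -0.35 and -0.36 against -0.29), and single genes such as Pml and Thbs1 lie far above.

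The tested genes whose pattern over the 12 samples was most like that of Trp53 were Mad1l1 (Pearson r = 0.993), Arpc1a (r = 0.987) and Jund (r = 0.984), and those most like Mdm2 were Arhgap30 (r = 0.977), Sh3bp2 (r = 0.971) and Chmp1a (r = 0.970), all on log2(TPM + 1). Among the members, Trp53 and Mdm2 had an r of 0.89, Trp53inp1 and Zmat3 an r of 0.93, and Btg2 and Sesn1 an r of 0.05. These correlations are descriptions over 12 samples in 4 groups, and the low values of WT LPS replicate 3 are shared by most of the genes.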

How the data were processed

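The 12 samples were grouped by their labels. The submitters' processing notes name fastp, GRCm39, STAR and kallisto, and the methods name STAR for mapping and kallisto for quantification. Versions are not given in the sources used here. The deposited values were taken as TPM averaged by the authors over the transcripts of a symbol, which is inferred from the values. Depth is unknown, and counting error could not be given. Genes beyond part of chromosome 13 were not analysed here, and every share, median and factor over all genes rests on the genes analysed. A gene was kept if 3 or more samples reached 1 TPM once scaled to a total of 1000000, a scaling used for this filter alone. Limma 3.58.1 (R 4.3.3) was fitted to log2(TPM + 1) over all 12 samples with a mean per group and a variance trend, and p-values were Benjamini-Hochberg adjusted over the 11887 genes. On this scale a fold change is understated for low genes. The authors used edgeR and limma for their comparisons. TMM factors (trimmed means of log ratios) of an alternative were computed from the TPM values, and no count test was run.

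The members and all lists were chosen with earlier results of these data known. Named genes were the 10 members, the 5 largest rises and falls among called regulators and targets in each comparison, Top2a, Mki67, Ccna2, Cgas, and the 3 genes most like Trp53 and Mdm2. The other called regulators were named after their values were seen. Alternatives were pseudocounts of 0.1 and 5, no filter, a filter of 5 TPM, TMM factors, quantile normalization, a common total, the 6 samples compared alone, a replicate block, sample weights, no trend, and each sample left out.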

Additional observations from a re-analysis of the deposited data

Results flagged for a closer look

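The LPS effect differed between the genotypes for 4 of the named genes that are not among the 10 members, by the interaction term in limma. For Ephx1 the difference of log2 fold changes, cGAS-/- minus WT, was 1.59 (standard error 0.24, adjusted p = 0.00977). It was 1.5 without WT LPS replicate 3 (adjusted p = 0.00120), 1.42 with TMM factors (adjusted p = 0.00745), and it passed the threshold in 20 of 22 alternatives. The proliferation genes Top2a, Mki67 and Ccna2 had differences of 2.31 (adjusted p = 0.00143), 2.14 (adjusted p = 0.00237) and 1.83 (adjusted p = 0.00467), and without WT LPS replicate 3 of 2.20, 2.08 and 1.73. All 4 genes were lower in cGAS-/- UT than in WT UT cells and low in all LPS samples, where the genotypes were not called different. None of the 10 p53 pathway genes met this rule, and groups of 3 samples were too small to be searched for single outlying samples.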

How the results depend on the processing

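Of the called single-gene results, Zmat3 with LPS in WT cells turned its direction, from -0.51 to 0.0395 after quantile normalization, and the cause was not tested. The number of members called with LPS in WT cells (6) was 2 with the 6 samples compared alone and 3 with sample weights (6.02% and 19.4% of all genes called). In cGAS-/- cells (2) it was 1 with a pseudocount of 0.1, 4 with a pseudocount of 5, 7 with the 6 samples alone and 7 with sample weights (11%, 15.4%, 44.6% and 48.3% of all genes). Between the genotypes in UT cells (0) it was 2 with the 6 samples alone and 1 with sample weights (10.4% and 11.5%). Under LPS (0) it was 1 with TMM factors, 1 with quantile normalization and 1 with sample weights (4.11%, 4.64% and 2.49%). For the interaction (0) it was 2 with sample weights (2.46%). The cause of these changes was not tested, except that the 6 samples alone use their own spread. With each sample left out in turn, the counts ranged from 3 to 9 with LPS in WT cells, 1 to 5 in cGAS-/- cells (8.58% to 30.8% of all genes), 0 to 0 between the genotypes in UT cells, 0 to 4 under LPS and 0 to 3 for the interaction. The lowest count in WT cells came without WT UT replicate 3 and the highest without WT LPS replicate 2 (17.4% and 48.7% of all genes). A group reduced to 2 samples takes its spread from the shared fit.

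No pairing by replicate number was seen: the 18 same-numbered pairs had correlations of deviations between -0.03 and 0.04, and none was over 0.1. The 36 other pairs lay between -0.06 and 0.05. These correlations cannot show whether same-numbered samples were handled together. With the replicate number as a block, 5 members were called with LPS in WT cells, 2 in cGAS-/- cells, and 0 in each of the other 3 comparisons (24.9%, 11.9%, and 0.454% to 1.51% of all genes). Reads behind a value are unknown, so the precision of low members such as Zmat3 and Trp53inp1 rests on 3 samples per group.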
